A study of Saccharomyces cerevisiae with 6 samples.

Results

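The genes described here encode subunits of the yeast complexes that move, evict or modify nucleosomes: SWI/SNF, RSC, SAGA, and the ISWI, CHD and INO80 ATPases. They were chosen by name, by mapping each row of the series' table to its gene symbol in the R64 annotation, and all 43 were found among 5793 features. RNA-Seq was performed on Saccharomyces cerevisiae strain BJ5464, labelled delta-URA3, with 3 heat shock libraries (37 °C for 20 min) and 3 optimal growth libraries (28 °C). A single YPD culture grown at 28 °C supplied both groups, and each library was made from polyadenylated RNA of an aliquot of unfixed cells, so replicates are aliquots and not separate cultures. The measurement used is the authors' mean abundance over all 6 libraries, in log2 CPM, where CPM expresses reads of a gene relative to all counted reads of a library. That mean pools heat shock with optimal growth, so it carries no spread between libraries, and no difference between the groups or between genes was tested. Depth per library is unknown.

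Nucleosomes block access to DNA, and remodellers use ATP to slide, space or eject them. SWI/SNF and RSC are related complexes built around the ATPases Snf2 and Sth1; SWI/SNF acts at inducible genes, stress genes included, whereas RSC is essential and keeps promoters depleted of nucleosomes. SAGA carries an acetyltransferase and a deubiquitinase that act on histones, and it helps to deliver TATA-binding protein (TBP). ISWI and Chd1 space nucleosomes into arrays, and INO80 acts on nucleosomes that flank promoters and at sites of DNA damage.

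To compare genes, the mean CPM was divided by the coding length in kilobases (kb), since a longer transcript yields more fragments. On this scale the members had a median log2 mean CPM per kb of 5.70, against 5.87 for the other 5748 features matched to the annotation. Before division by length the order turned, with medians of 6.58 for the members and 6.26 for the rest. Per kb, the members' median lay at percentile 45.7 of all 5791 matched features. Of the 43 members, 32 lay within the interquartile range of all features, which ran from 4.89 to 6.99, while 5 lay above it and 6 below it. Levels ranged from 3.46 for TRA1 to 7.70 for TAF14, an 18.9-fold span between members. With 200 bases subtracted from each coding length, HTL1 (8.97) passed TAF14 (8.15) as the highest member and the span was 44.9-fold, so the top of the order depends on how short genes are scaled. The members' quartiles differed 2.18-fold and those of all features 4.27-fold. Together the 43 genes took up 0.455% of the summed mean CPM while making up 0.743% of the features.

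**Figure D1:**
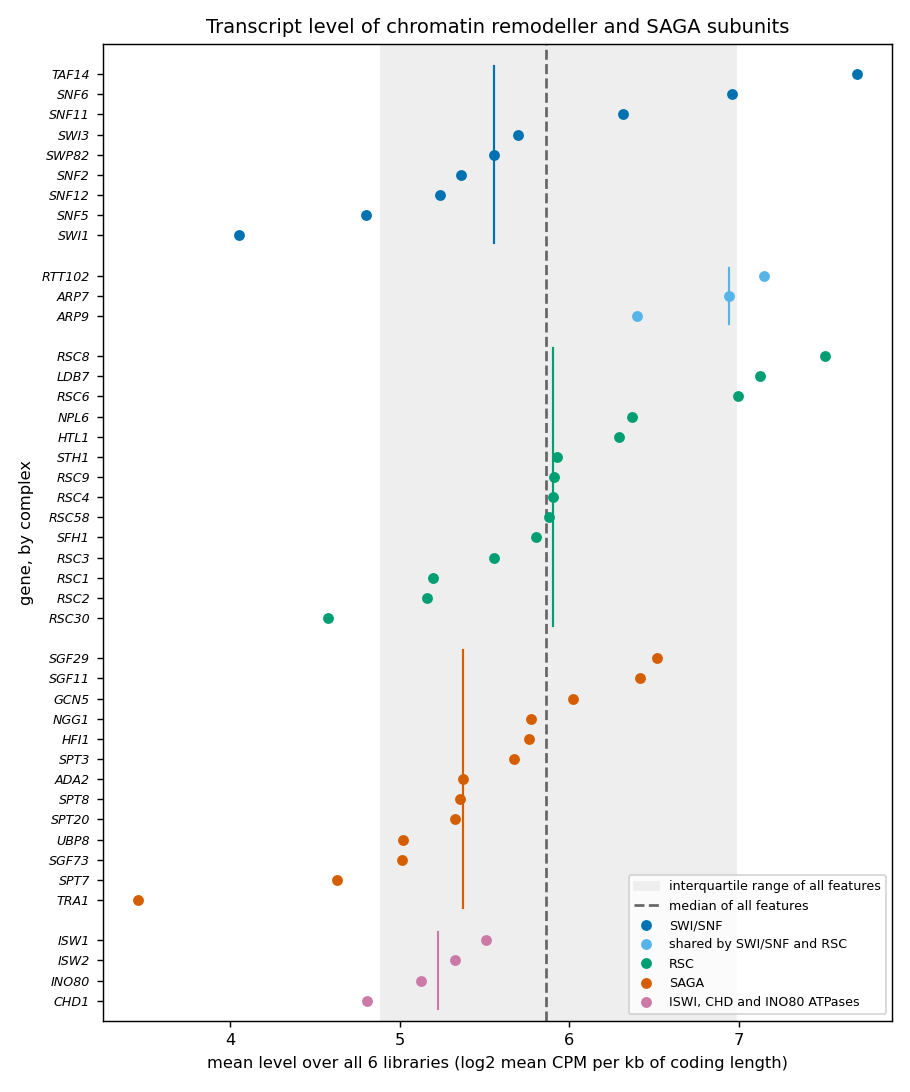
Level of each member (dots, log2 mean CPM per kb of coding length, the authors' mean over all 6 libraries), grouped by complex. Coloured lines mark the medians of the genes plotted in each group. These were 5.56 for SWI/SNF and 5.91 for RSC without the subunits they share, and 6.94 for those shared subunits. The median was 5.38 for SAGA without its TAF and SUS1 genes, and 5.23 for the ISWI, CHD and INO80 ATPases. The grey band is the interquartile range of all 5791 features and the dashed line their median.

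Among the ATPases, the RSC motor STH1 had the highest level, at 5.93 log2 mean CPM per kb. STH1 (YIL126W) lies on chromosome IX from 117992 to 122071 on the plus strand (R64, 1 exon). It was followed by ISW1 at 5.51, SNF2 at 5.36, ISW2 at 5.32, INO80 at 5.13 and CHD1 at 4.80. Per kb, these 6 motors therefore spanned 2.18-fold, and all except STH1 lay below the median of all features. Before division by length all 6 lay above that median, 6.26 log2 mean CPM, from 6.94 for CHD1 to 7.96 for STH1. On that scale SNF2 (7.72) and INO80 (7.29) exceeded ISW1 (7.27), so both results rest on length. SNF2 (YOR290C) lies on chromosome XV from 855147 to 860258 on the minus strand. ISW1 (YBR245C) and ISW2 (YOR304W), the ISWI motors, lie on chromosome II (708150 to 711539, minus strand) and chromosome XV (884514 to 887876, plus strand). CHD1 (YER164W) is found on chromosome V (505392 to 509798, plus strand) and INO80 (YGL150C) on chromosome VII (221104 to 225573, minus strand). Each of these genes has 1 exon.

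SWI/SNF subunits other than those shared with RSC had a median of 5.56 log2 mean CPM per kb over 9 genes, and 3 of them lay above the median of all features. TAF14 was the highest at 7.70, percentile 84.4 of all features; its YEATS domain protein also belongs to TFIID, TFIIF, INO80 and NuA3. SNF6 followed at 6.96 and SNF11, whose product binds Snf2, at 6.32. The scaffold gene SWI3 was at 5.70, SWP82 at 5.56 and SNF12 at 5.24. SNF5, a core subunit, was at 4.80. SWI1, which encodes a subunit with an ARID domain that can form a prion, was the lowest of the complex at 4.05, percentile 12.2. The group without TAF14 had a median of 5.46.

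The subunits that SWI/SNF and RSC share had higher levels. RTT102 was at 7.15 log2 mean CPM per kb, and the genes of the actin-related proteins that bind the motor, ARP7 and ARP9, were at 6.94 and 6.40. The median of these 3 genes lay at percentile 74.0 of all features. Counted in both complexes, they gave medians of 6.01 for SWI/SNF (12 genes) and 5.93 for RSC (17 genes), so the order of the complexes turned and SWI/SNF then lay above the median of all features.

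RSC without the shared subunits had a median of 5.91 log2 mean CPM per kb over 14 genes, close to the median of all features, 5.86, which 9 of the 14 exceeded. RSC8, the scaffold related to Swi3, was the highest at 7.51; with 200 bases subtracted from the length, HTL1 (8.97) and LDB7 (7.79) exceeded it (7.69). It lies on chromosome VI (YFR037C, 227513 to 229186, minus strand, 1 exon), and it also had the highest deposited value of any member before division by length, a log2 mean CPM of 8.25. LDB7 at 7.13 and RSC6 at 7.0 followed. NPL6 was at 6.37 and HTL1 at 6.29; with LDB7, RSC3 and RSC30 they encode a submodule of the complex. RSC9 (5.91), RSC4 (5.90), which encodes a protein with a pair of bromodomains, RSC58 (5.88) and SFH1 (5.81) lay just below STH1. The zinc cluster DNA-binding proteins are encoded by RSC3, at 5.55, and RSC30, at 4.57. The bromodomain paralogs RSC1 and RSC2, which occupy alternative forms of the complex, were at 5.20 and 5.16.

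The SAGA members had a median of 5.38 log2 mean CPM per kb over 13 genes, and 3 of these lay above the median of all features. This list is partial, as it leaves out SUS1 and the TAF genes whose proteins SAGA shares with TFIID. Those 6 genes all lay above the median of all features, from 6.23 for TAF5 to 7.72 for TAF9. A median over both lists was not computed, so 5.38 is not a value for the whole complex. In the acetyltransferase module, SGF29, whose tudor domains read histone H3 methylation, was the highest at 6.52. The catalytic subunit GCN5 (YGR252W, chromosome VII, 996869 to 998188, plus strand, 1 exon) was at 6.02, NGG1 at 5.77 and ADA2 at 5.38. In the deubiquitinase module, SGF11 was at 6.42, whereas the protease UBP8 (YMR223W, chromosome XIII, 716715 to 718130, plus strand, 1 exon) was at 5.02 and SGF73, which anchors the module, at 5.01. The architectural and TBP-binding subunits were HFI1 at 5.77, SPT3 at 5.67, SPT8 at 5.36, SPT20 at 5.32 and SPT7 at 4.63. TRA1, the pseudokinase that activators contact and that the acetyltransferase complex NuA4 shares, was the lowest of all members at 3.46, percentile 7.41. TRA1 (YHR099W) lies on chromosome VIII from 302761 to 313995 on the plus strand in 1 exon, and its 11235 coding bases are the most of any member.

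The order of the members followed their length in part. Members were long, with a median coding length of 1746 bases against 1203 for the rest, and 34 of 43 exceeded the median feature. All 8 members under 1000 coding bases lay above the median level of all features, whereas only STH1 did so among the 16 members over 2000 bases. The matching shares among all features of these lengths were not computed, so the counts are not shown to be particular to the members. Spearman's rho between coding length and level per kb was -0.73 across the 43 members and -0.30 across all 5791 features. This is a description over genes, and length enters both axes. Before division by length, the deposited log2 mean CPM of the members ran from 4.21 for HTL1 to 8.25 for RSC8. INO80 was the 6th highest member on that scale and the 35th per kb, TRA1 the 13th and the 43rd, and RTT102 the 33rd and the 3rd. The part of read counting at gene ends and in untranslated sequence in these shifts was not tested.

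**Figure D2:**
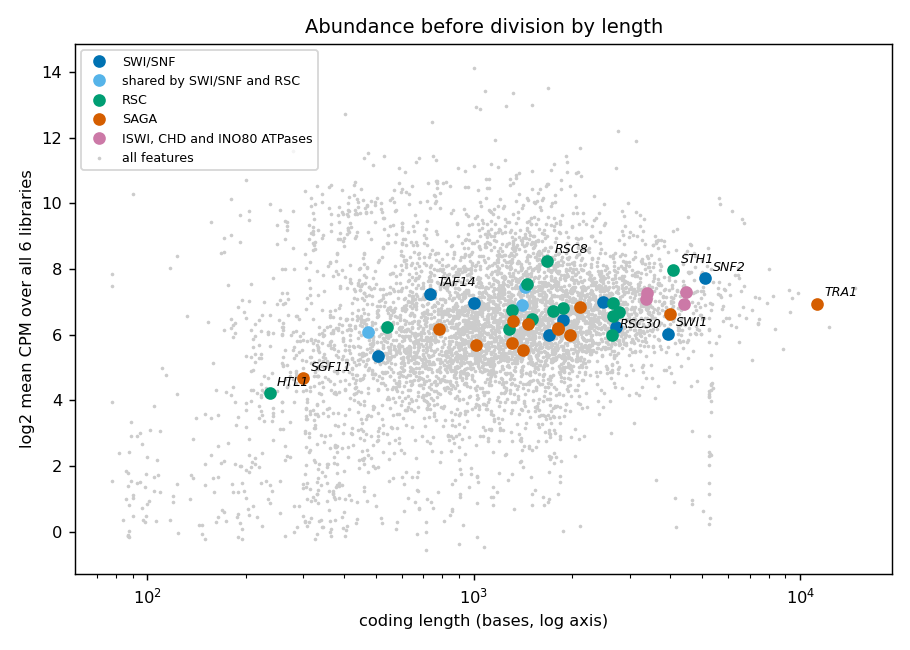
Deposited log2 mean CPM over all 6 libraries against coding length (bases, log axis) for the 43 members (coloured by complex) and all matched features (grey). The members sit between 4.21 and 8.25, and TRA1, the longest member, has a value of 6.95 that lies within the range of far shorter genes.

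Several SWI/SNF subunits have a relative in RSC, and these pairs were compared per kb. In each of the 4 pairs the SWI/SNF gene was lower. SWI3 was at 5.70 log2 mean CPM per kb and RSC8 at 7.51, a difference of -1.81. SNF12 was at 5.24 and RSC6 at 7.0, a difference of -1.76. For SNF5 (4.80) and SFH1 (5.81) the difference was -1.0, and for SNF2 (5.36) and STH1 (5.93) it was -0.56. The SNF5 and SFH1 order rests on length, since their deposited values before division differed by 0.08 in the other direction. Within RSC, RSC1 and RSC2 differed by 0.04. ISW1 exceeded ISW2 by 0.18, and ARP7 exceeded ARP9 by 0.54. With no value per library, none of these differences has an error.

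**Figure D3:**
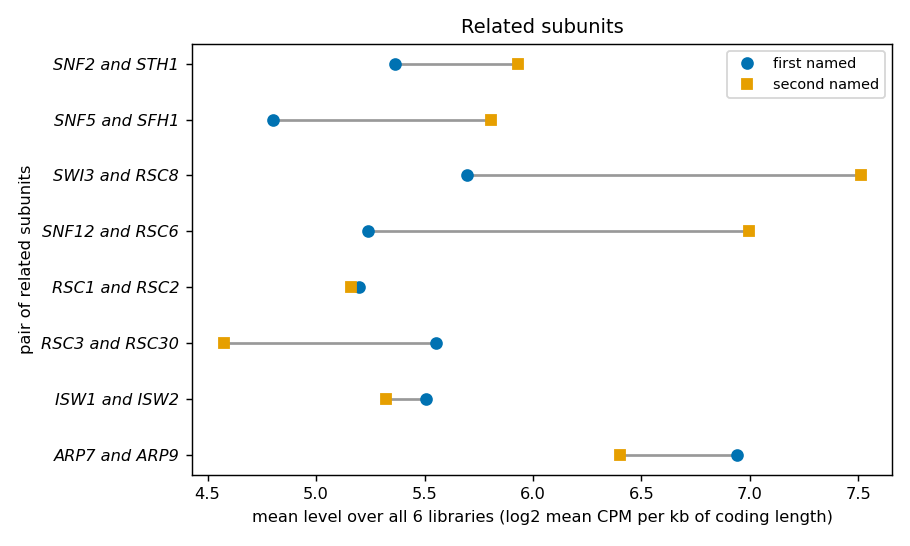
Level per kb of coding length (log2 mean CPM, mean over all 6 libraries) in 8 pairs of related subunits, the first-named gene as a circle and the second-named as a square. The RSC gene lies right of its SWI/SNF relative in the upper 4 pairs (differences of -0.56 to -1.81 log2 units, SWI/SNF minus RSC), and RSC1 and RSC2 nearly coincide.

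RSC3 exceeded RSC30 by 0.98 log2 units, but RSC30 has a partial copy in the genome. RSC30 (YHR056C) lies on chromosome VIII from 215183 to 217834 on the minus strand. Of its 50-base words, 39.2% occur elsewhere in the genome, and 1016 of these 1020 words lie in YHR054C (213185 to 214249), which the annotation describes as a truncated duplicate of RSC30. The repeated part covers 1069 bases without a gap, from 215183 to 216251. When the whole mean CPM was divided by the number of words found once in the genome, in place of the length, RSC30 was at 5.32. The difference then fell to 0.26. Only the divisor changed, so 5.32 holds if no read from the repeated part was counted and is too high otherwise. How reads matching both places were counted is not stated in the sources used here, so the level of RSC30 is uncertain. The other 42 members had no repeated 50-base word. RSC2 overlaps YLR358C on the opposite strand over 514 bases (19.3% of RSC2), and INO80 overlaps YGL149W by 2 bases. Use of strand in counting is not stated, so reads of RSC2 and YLR358C may not have been separated.

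The other subunits of these complexes were listed for context. The 6 genes of the SAGA TAFs and SUS1, a list of proteins that SAGA shares with TFIID or with mRNA export factors, had a median of 6.58 log2 mean CPM per kb, from 6.23 for TAF5 to 7.72 for TAF9. Per kb, only SGF29 and SGF11 of the 13 SAGA members reached that range. Before division by length these 6 genes ran from 5.48 for SUS1 to 7.49 for TAF5. On that scale SGF11 (4.68) lay below their range and the other SAGA members lay within it, so the count rests on length. INO80 itself was at 5.13 per kb, below all 14 other subunits measured. Its 13 partners outside the members had a median of 6.77, from 5.39 for ARP8 to 11.01 for ACT1, the actin gene. TAF14 was also above INO80. Before division by length INO80 was at 7.29, and only ACT1 (11.19), RVB1 (8.08) and RVB2 (7.52) of these subunits exceeded it. Per kb, SNF2 was below 8 of its 11 fellow subunits and above SWI1, SNF5 and SNF12. STH1 was below 8 and above 8 of its 16. Before division by length SNF2 (7.72) exceeded all its fellow subunits, and only RSC8 (8.25) exceeded STH1 (7.96) within RSC. The place of INO80, SNF2 and STH1 within their complexes therefore depends on the division by length. Again per kb, the 6 ISWI partner genes had a median of 5.70 and the ATPase gene FUN30 was at 5.24. The 10 genes listed for the SWR1 complex, which deposits the histone variant H2A.Z, had a median of 5.45. That median was 5.70 over 14 genes with ARP4, RVB1, RVB2 and ACT1, which the SWR1 complex shares with INO80. URA3, by which the labels describe the strain, had a mean of 7.10 log2 CPM before division by length and 7.41 per kb, percentile 81.0 of all features. Which part of URA3 this signal comes from, and what the label means for the gene in this strain, was not tested.

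The members were rich in codons for glutamine and asparagine, residues that make up flexible, low-complexity stretches in many yeast regulators. These codons made up a median of 12.4% of the codons of a member, against 9.47% over all 5706 protein-coding features. Of the members, 17 (39.5%) exceeded 13.5%, the 90th percentile of all protein-coding features. SWI/SNF supplied 7 of its 9 genes to this count, RSC 5 of 14, SAGA 3 of 13, the subunits shared by SWI/SNF and RSC 1 of 3, and the ISWI, CHD and INO80 ATPases 1 of 4. SNF11 had the highest share at 28.4%, followed by SWI1 at 24.7%, SNF5 at 23.0%, SGF73 at 20.5%, HTL1 at 19.2% and SPT20 at 19.2%. At least 8 glutamine codons in a row were found in 3 members (6.98%), and in 1.31% of all protein-coding features. Such runs also occurred in partner genes outside the members, with 23 codons in TAF12, 11 in IOC2 and 8 in DLS1, so they are not particular to the members. Spearman's rho between the codon share and the level per kb was -0.21 over the 43 members and -0.15 over all protein-coding features, a description only.

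The longest glutamine-codon runs of the 3 members are printed because the authors masked repeats before alignment. Low-complexity repeats of this kind are where masking can remove reads. Capitals mark the run of CAA and CAG codons, with 15 bases on each side in lower case (R64, plus strand). SNF5 has 37 such codons in a row (chromosome II, 780345 to 780485), SGF73 has 11 (chromosome VII, 378989 to 379051) and SWI1 has 8 (chromosome XVI, 522040 to 522093).
SNF5: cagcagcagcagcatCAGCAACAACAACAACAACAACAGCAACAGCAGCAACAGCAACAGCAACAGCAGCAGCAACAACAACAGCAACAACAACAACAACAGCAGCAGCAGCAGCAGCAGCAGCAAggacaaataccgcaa
SGF73: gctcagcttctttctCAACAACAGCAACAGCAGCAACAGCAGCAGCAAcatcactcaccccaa
SWI1: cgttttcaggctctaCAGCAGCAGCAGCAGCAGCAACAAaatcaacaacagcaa
In the reference used here, which NCBI masked and not the authors, 90.1% of the SNF5 stretch, 60.3% of the SGF73 stretch and 75.9% of the SWI1 stretch are marked as repeats. Over whole coding sequences the marked share was 22.4% for SWI1, 11.3% for SNF5 and 12.6% for SGF73, with a median of 9.89% over the members. These 3 genes were at 4.05, 4.80 and 5.01 log2 mean CPM per kb, the lower part of the members' range. Other members went the other way: HTL1 had the highest marked share (30.8%) and a level of 6.29, and GCN5 (13.6%) and NPL6 (13.5%) also lay above the median of all features. Spearman's rho between marked share and level per kb was -0.49 over the members and -0.20 over all features, a description over genes that differ in length and base composition as well. The part of the authors' masking in these levels was not tested.

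**Figure D4:**
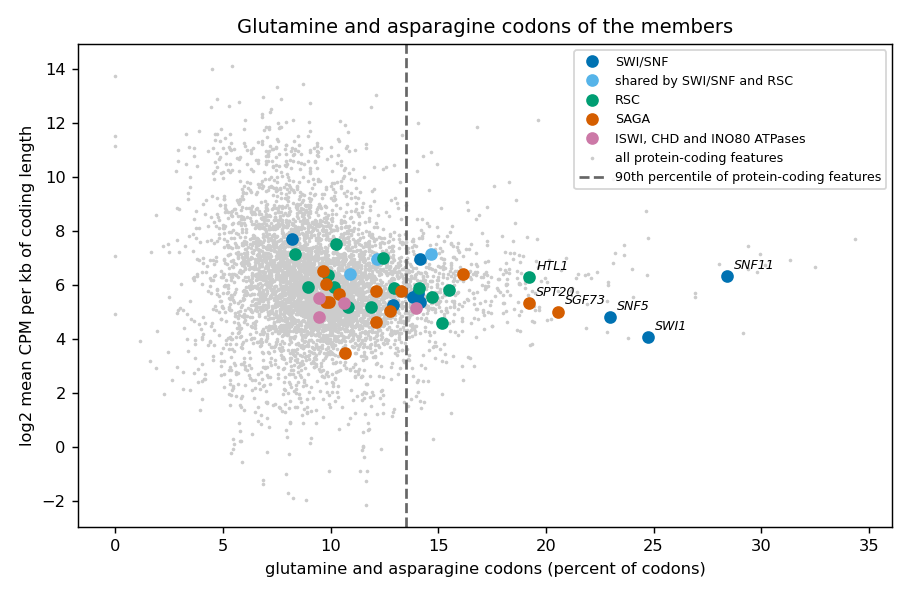
Level per kb (log2 mean CPM, mean over all 6 libraries) against the percent of codons that encode glutamine or asparagine, for the members (coloured by complex) and all protein-coding features (grey). The dashed line is the 90th percentile at 13.5%; 17 of the 43 members lie to its right, with SNF11 at 28.4% the farthest.

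Introns are uncommon in yeast, and 2 of the 43 members have one in their coding sequence. TAF14 (YPL129W, chromosome XVI, 305298 to 306137, plus strand, 2 exons) has a first exon of 9 bases, and ARP9 (YMR033W, chromosome XIII, 337788 to 339277, plus strand, 2 exons) one of 30 bases. Their levels were computed over 735 and 1404 coding bases with the introns left out. The introns are printed to show the splice signals, with the first 6 bases, the branch point sequence and the last 3 bases in capitals (R64, plus strand). That of TAF14 runs from 305307 to 305411 and that of ARP9 from 337818 to 337903.
TAF14: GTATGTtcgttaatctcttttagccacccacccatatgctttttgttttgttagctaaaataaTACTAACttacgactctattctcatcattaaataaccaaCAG
ARP9: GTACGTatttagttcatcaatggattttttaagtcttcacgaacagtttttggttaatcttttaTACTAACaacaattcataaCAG
Both introns hold the branch point sequence TACTAAC. The 5′ splice site is GTATGT in TAF14 and GTACGT in ARP9.

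The members did not lie together in the genome, being spread over 15 of the 16 nuclear chromosomes with at most 5 on any. Their promoters (250 bases before to 50 bases after the start codon) were searched on both strands for letters of known sites. CGCGC, the core of the sequence that Rsc3 and Rsc30 bind, was found in 6 of 43 (14.0%) and in 10.6% of all 6020 promoters; the 6 were SWI3, SNF6, ARP7, ARP9, STH1 and RSC2. TTACCCG, bound by the general regulatory factor Reb1, was found in 14.0% of members and 7.06% of all, in SNF11, RSC58, NPL6, SPT7, SPT20 and INO80. Heat shock element letters, taken as TTCNNGAA or GAANNTTC, occurred in 11 members (25.6%) and in 22.6% of all promoters. The stress response element AGGGG occurred in 5 members (11.6%) and 21.6% of all, and TATAAA in 34.9% and 45.4%. The Rap1 letters ACCCANACA were found in ADA2 alone (2.33%, against 1.46% of all), and AAAAAAA in 48.8% against 50.1%. The search windows of neighbouring genes can overlap, and a match is a run of letters and not a measured binding site.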

How the data were processed

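Polyadenylated RNA of 6 libraries was sequenced from stranded libraries (3 heat shock, 3 optimal growth). Per the paper's methods, the authors used kalign for alignment to the repeat-masked R64 assembly, followed by the Trinity edgeR pipeline. The deposited log2 mean CPM, the mean over the libraries of both groups, was the only measurement used; read counter, strand setting, multi-mapped reads, prior count and low-count filter are not given in the sources used here. The table's fold changes, p-values and FDR are the authors' comparison and were not used. No comparison between the groups was therefore made.

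Features were matched to the RefSeq annotation of R64 (5715 by locus tag, 76 by symbol, 2 unmatched). Level per kb is the log2 mean CPM minus the log2 of the coding length in kb. Promoters and 50-base words (both strands) were read from the same assembly. The code was tested on simulated data with known answers. Python 3.11.15, numpy 2.4.6, pandas 2.3.3 and matplotlib 3.10.9 were used. Members and lists were chosen with earlier results of these data known; all 43 members are named, with positions for the highest and lowest, the catalytic and the spliced genes. Protein sequences had been planned and were replaced by codon counts; the codon-run stretches and the RSC30 copy were chosen after values were seen. Alternatives were other length corrections, backgrounds and averages.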

Additional observations from a re-analysis of the deposited data

How the results depend on the processing

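With no spread between libraries, a level was taken as moved when it shifted by more than 1.5-fold, and a percentile when it shifted by more than 10 points. Without division by length, the median log2 mean CPM of the members was 6.58, at percentile 58.7 and above the 6.26 of the rest. The medians were 6.46 for SWI/SNF, 6.70 for RSC and 6.18 for SAGA without its TAF and SUS1 genes. For the ISWI, CHD and INO80 ATPases the median was 7.17, and this group moved to the top of the order of complexes. SNF5 minus SFH1 was 0.082, a reversal. Without that division INO80, SNF2 and STH1 also stood higher within their complexes. With features of log2 mean CPM of at least 5 as the background, the members' median lay at percentile 34.3. With the unchanged mean CPM divided by the number of words found once in the genome, RSC3 minus RSC30 was 0.26. RSC30 itself was at 5.32, the only member of 43 that moved. Subtracting 200 bases from each length moved 5 short members upward: HTL1 to 8.97, SGF11 to 8.0, RTT102 to 7.94, LDB7 to 7.79 and SNF11 to 7.04. HTL1 then stood above TAF14 (8.15) among the members and, with LDB7, above RSC8 (7.69) within RSC, and the span of the members was 44.9-fold. Counting the shared subunits in both complexes, an alternative chosen after seeing the data, gave 6.01 for SWI/SNF and 5.93 for RSC, the opposite order. Protein-coding genes alone, a minimum of 1, a background without the members, means in place of medians and leaving out subunits of more than 1 complex moved no median or percentile they were applied to by these limits.

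No paired analysis was possible because the value used is a mean over both groups. Leaving out each replicate in turn was planned and not run for the same reason. Whether a library stands apart is unknown here.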
